A study of Mus musculus with 22 samples.

Results

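The genes described here are 9 markers of brain regions that lie next to the hypothalamus, followed through the hypothalamus libraries of a mouse RNA-seq study. They are the thalamic markers Prkcd, Tcf7l2, Calb2 and Gbx2, the striatal markers Drd1, Ppp1r1b and Rgs9, and the cortical markers Neurod6 and Tbr1. They were matched by symbol and are 9 of 41456 genes in the count table. The set was proposed with earlier results of these data known. All 9 matched 1 gene ID each, and all 9 passed the filter on low counts.

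The study asked how paternal loss of the Snord116 small nucleolar RNA genes and sleep deprivation change the hypothalamic transcriptome. PWScrm+/p− mice carry the paternal Snord116 deletion and are called mutant. PWScrm+/p+ mice are called control. All mice had the C57BL/6J background, and the labels used here give neither age nor sex. Mice kept awake for 6 h before ZT6 form the SD groups (sleep deprivation, 4 mutant and 4 control libraries). Others were taken at ZT6 undisturbed (4 mutant and 4 control), or at ZT0, the start of the light period (3 mutant and 3 control). ZT counts hours from the start of light.

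Values below rest on 17 of the 22 libraries: 4 mutant SD, 2 mutant ZT6, 4 control SD, 4 control ZT6 and 3 control ZT0. The 5 others are the 3 mutant ZT0 libraries and mutant ZT6 replicates 2 and 3. Mutant ZT6 replicate 2 holds 7348 counts in all. Mutant ZT0 replicates 1, 2 and 3 hold 15487131, 32164426 and 3120328 counts, and mutant ZT6 replicate 3 holds 17773316. In these last 4 libraries, a list of 11 neuronal genes summed to 46.8 to 133 CPM (counts-per-million of a library), against 4531 to 7028 CPM in the 17 libraries. No ZT0 comparison of the genotypes is therefore given. The 17 libraries hold 14609454 to 46965594 counts each. The 17 Snord116 lines of the table are at 0 in all 6 mutant libraries kept and above 0 in 8 of 11 control libraries kept, but polyA libraries hold few small nucleolar RNAs.

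The kept libraries also differ in ways the groups do not explain. Mutant SD replicates 1 and 4 and the first control ZT6 replicate are rich in pituitary transcripts. Fold changes between groups that turn in sign without them are also given without them. The numbers in the sample titles fall into separate runs, called index sets here. These numbers run from 1 to 4 (index set 1, 4 kept libraries), 5 to 18 (index set 2, 9 libraries) and 43 to 46 (index set 3, 4 libraries), and the labels do not say what they mean. All control ZT0 libraries are in index set 2, and mutant ZT6 has none in index set 1. Of the pituitary-rich libraries, mutant SD replicate 1 and the first control ZT6 replicate are in index set 1, and mutant SD replicate 4 is in index set 3. Comparisons of index sets were not refitted without them.

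Each of these genes is a textbook label for a group of cells. Gbx2 encodes a homeodomain factor needed for the thalamus to form, and Tcf7l2, a Wnt pathway effector, marks thalamic and habenular neurons. Prkcd encodes protein kinase C delta, abundant in thalamic relay neurons and also in the central amygdala, and Calb2 encodes calretinin, a calcium-binding protein of midline thalamus and of many other neurons. Drd1 encodes the D1 dopamine receptor, Ppp1r1b the phosphatase inhibitor DARPP-32 and Rgs9 a regulator of G protein signalling, all abundant in striatal projection neurons. Neurod6 and Tbr1 encode transcription factors of excitatory neurons of cortex, hippocampus and amygdala. Several of them are also expressed within the hypothalamus, so a level here does not by itself name the tissue it came from.

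The promoter windows of 3 members are shown, because Prkcd and Gbx2 varied together across libraries and Tbr1 differed most between sets of libraries. A window runs from 250 bases before to 50 bases after the annotated start and was taken from RefSeq (GRCm38.p6), which matched 7 of the 9 members with 10 windows. Calb2 and Ppp1r1b had no entry. In the Prkcd and Gbx2 windows the capitals mark CACGTG, the E-box hexamer read by several basic helix-loop-helix factors. In the Tbr1 window they mark TAATTA, the core read by many homeodomain factors.

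Prkcd, chr14:30626159-30626458, minus strand: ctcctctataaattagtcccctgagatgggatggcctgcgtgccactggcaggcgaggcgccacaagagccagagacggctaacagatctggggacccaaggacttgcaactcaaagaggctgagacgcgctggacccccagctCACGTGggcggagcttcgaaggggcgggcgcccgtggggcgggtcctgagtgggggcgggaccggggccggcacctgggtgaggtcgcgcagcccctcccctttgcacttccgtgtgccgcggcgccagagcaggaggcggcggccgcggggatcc

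Gbx2, chr1:89931127-89931426, minus strand: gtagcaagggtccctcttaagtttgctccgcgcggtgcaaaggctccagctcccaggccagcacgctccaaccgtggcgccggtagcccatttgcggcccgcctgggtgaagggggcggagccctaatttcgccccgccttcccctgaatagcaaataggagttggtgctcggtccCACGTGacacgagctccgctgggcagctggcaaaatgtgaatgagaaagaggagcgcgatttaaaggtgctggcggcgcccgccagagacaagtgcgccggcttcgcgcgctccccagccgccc

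Tbr1, chr2:61804203-61804502, plus strand: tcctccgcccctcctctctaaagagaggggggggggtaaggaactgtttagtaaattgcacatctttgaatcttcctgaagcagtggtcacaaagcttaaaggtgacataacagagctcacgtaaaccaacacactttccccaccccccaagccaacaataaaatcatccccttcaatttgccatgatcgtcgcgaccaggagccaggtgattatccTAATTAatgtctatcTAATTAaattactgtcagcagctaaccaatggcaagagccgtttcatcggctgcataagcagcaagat

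CACGTG was found in 2 of the 10 member windows, those printed for Prkcd and Gbx2, and in 7.15% of all 32851 promoter windows. TAATTA was found in the Tbr1 window alone among the 10, and in 5.29% of all windows. Of the other motifs searched on both strands, CAGATG was in the Rgs9 window and in 17.2% of all windows. The cyclic AMP response element TGACGTCA (1.79% of all windows) and the Tcf/Lef core CTTTGAT (3.73%) were in none of the 10. These are matches of letters and not sites of binding.

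Levels are given as CPM scaled by TMM factors, which correct for library composition. A difference was called at an adjusted p under 0.05 in edgeR's quasi-likelihood test, with Benjamini-Hochberg adjustment over 21346 genes. Counts are not divided by gene length, so levels are compared between libraries and not between genes. In tissue RNA, fewer cells of a type and less RNA per cell cannot be told apart.

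**Figure D1:**
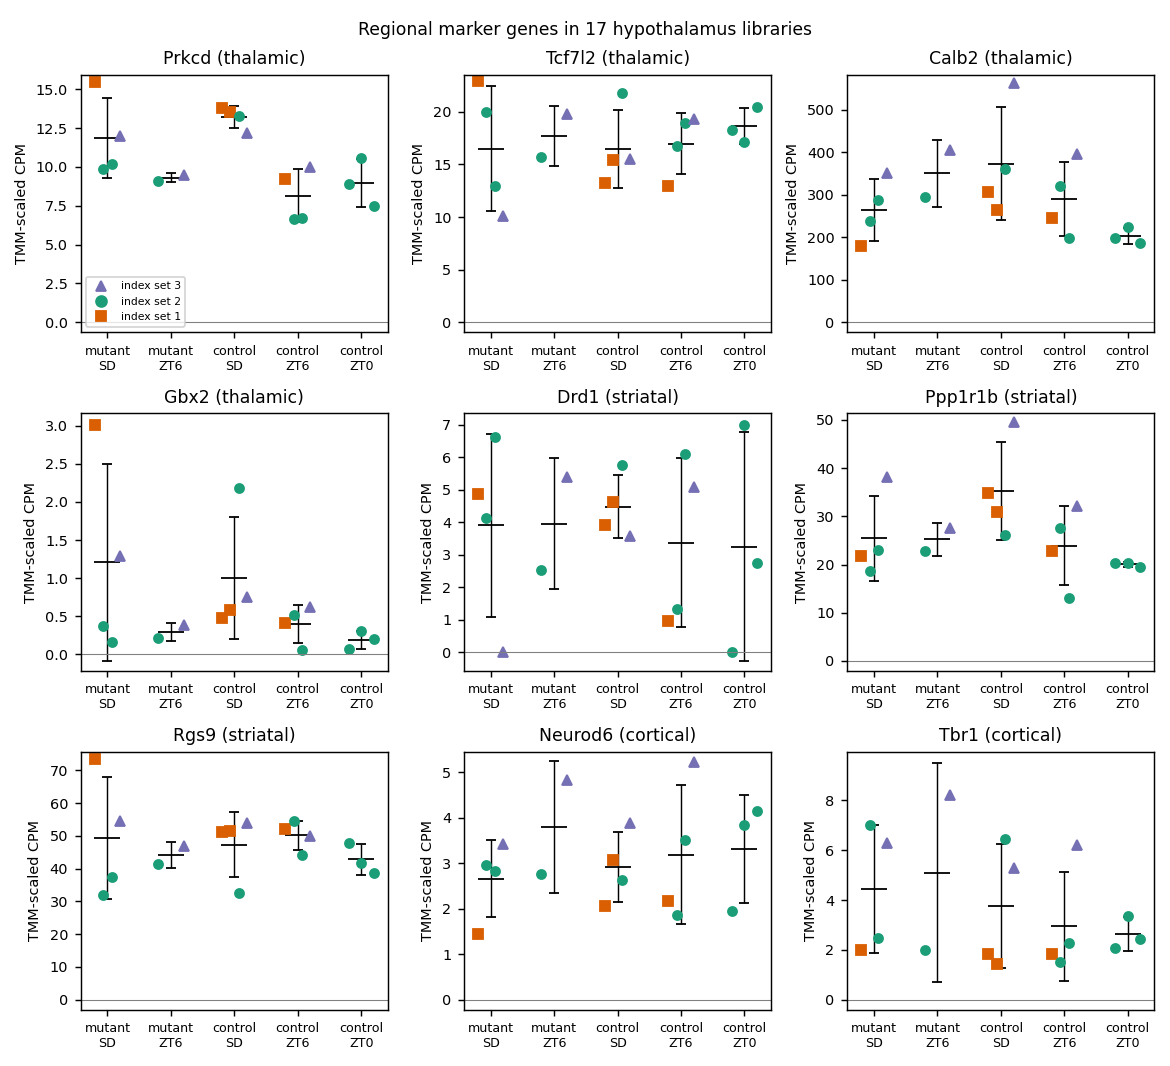
TMM-scaled CPM of each of the 9 genes (vertical axis, from 0) in the 17 libraries, by group (horizontal axis), with 1 point per library shaped and coloured by index set, and the group mean ± SD in black. Prkcd after SD lies above ZT6 in each genotype, while Tbr1 and Calb2 are high in the libraries of index set 3 whatever their group.

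Of the thalamic markers, Prkcd differed most clearly with sleep deprivation, without passing the threshold. Prkcd had 15.5, 9.86, 10.2 and 12.003 CPM in mutant SD libraries, against 9.09 and 9.50 CPM in mutant ZT6 libraries. Prkcd had 13.8, 13.5, 13.3 and 12.2 CPM in control SD libraries, against 9.20, 6.66, 6.74 and 10.03 CPM in control ZT6 libraries and 8.88, 10.6 and 7.45 CPM in control ZT0 libraries. Within each genotype every SD library lay above every ZT6 library. Among all genes, 4.6% had mutant groups that did not overlap in this direction, and 0.829% had such control groups.

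Averaged, Prkcd stood at 13.2 ± 0.702 CPM in control SD and 8.16 ± 1.72 CPM in control ZT6 (SD, n = 4 each). The log2 fold change was 0.69 ± 0.20 (SE), with an edgeR unadjusted p of 0.00298 and an adjusted p of 0.699. In the mutants it was 0.36 ± 0.24, with an edgeR adjusted p of 1, and the difference between the genotypes in this response was -0.34 ± 0.31 (edgeR adjusted p = 1). The response was thus not shown to differ between genotypes. Within index sets 1, 2 and 3 the control difference was 0.57, 0.98 and 0.28 on the log2 CPM scale, and within index sets 2 and 3 the mutant difference was 0.14 and 0.33, each from 1 or 2 libraries a side.

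Gbx2, the thalamic homeodomain gene, had few counts, with 7 to 114 in 14 of the 17 libraries and 1, 2 and 4 in the others. Gbx2 had 3.01, 0.370, 0.162 and 1.29 CPM in mutant SD libraries, against 0.209 and 0.38005 CPM in mutant ZT6 libraries. It had 0.484, 0.579, 2.18 and 0.757 CPM in control SD libraries, against 0.406, 0.516, 0.0586 and 0.627 CPM in control ZT6 libraries and 0.0648, 0.307 and 0.199 CPM in control ZT0 libraries. The groups overlap, and 2 SD libraries, mutant replicate 1 and control replicate 3, stand highest. Those libraries hold 114 and 53 counts of Gbx2, while the lowest library, control ZT6 replicate 3, holds 1.

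The log2 fold change of Gbx2 after SD was 2.04 ± 1.11 in mutants and 1.30 ± 0.85 in controls (edgeR adjusted p = 1 and 0.949). Without the 3 libraries rich in pituitary transcripts, the mutant value was -0.055. Gbx2 lies at chr1:89927956-89931179 on the minus strand (GRCm38) and overlaps D130058E05Rik on the plus strand. That antisense gene had 72 counts in mutant SD replicate 1 and 0 to 15 in the other kept libraries. Strand use in counting is not given in the sources used here, and only the bounds of the genes were compared. How far reads of the pair mix was not tested.

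Tcf7l2, the Wnt effector, had 22.9, 20.02, 12.97 and 10.1 CPM in mutant SD libraries, against 15.7 and 19.8 CPM in mutant ZT6 libraries. It had 13.2, 15.4, 21.8 and 15.5 CPM in control SD libraries, against 12.99, 16.7, 18.9 and 19.3 CPM in control ZT6 libraries and 18.3, 17.2 and 20.5 CPM in control ZT0 libraries. The groups overlap throughout, and the log2 fold change after SD was -0.10 ± 0.29 in mutants and -0.04 ± 0.24 in controls (edgeR adjusted p = 1 in both). Tcf7l2 overlaps the gene Ppnr on the same strand.

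Calb2, the calretinin gene, had 179, 238, 287 and 351 CPM in mutant SD libraries, against 294 and 406 CPM in mutant ZT6 libraries. It had 307, 263, 359.6 and 564 CPM in control SD libraries, against 245, 321, 199 and 396 CPM in control ZT6 libraries and 198, 224 and 187 CPM in control ZT0 libraries. Control ZT0 libraries lay low and close together, but overlapped with control ZT6. After SD the log2 fold change was -0.41 ± 0.32 in mutants and 0.36 ± 0.27 in controls, and the difference between these responses was -0.77 ± 0.42 (edgeR adjusted p = 1, 0.986 and 1). Between genotypes after SD it was -0.50 ± 0.27 (edgeR adjusted p = 0.999), and it was negative within each index set, at -0.67, -0.46 and -0.68. Leaving out 1 library moved it between -0.65 and -0.21, and moved the control value after SD between 0.11 and 0.55.

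Among the striatal markers, Ppp1r1b followed Calb2. Ppp1r1b had 21.9, 18.6, 23.0 and 38.3 CPM in mutant SD libraries, against 22.9 and 27.6 CPM in mutant ZT6 libraries. It had 34.8, 30.9, 26.0 and 49.5 CPM in control SD libraries, against 22.8, 27.6, 13.1 and 32.2 CPM in control ZT6 libraries and 20.4, 20.2 and 19.5 CPM in control ZT0 libraries. Control SD libraries were mostly high and yet overlapped with control ZT6. The log2 fold change after SD was 0.01 ± 0.34 in mutants and 0.56 ± 0.28 in controls (edgeR adjusted p = 1 and 0.824), with an unadjusted p of 0.0593 in controls from edgeR. Ppp1r1b overlaps 1700003D09Rik on the other strand, which had 49 to 396 counts in the kept libraries. How far their reads mix was not tested either.

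Drd1, the D1 receptor gene, was the most variable member and was at 0 counts in 2 libraries. Drd1 had 4.88, 4.14, 6.63 and 0 CPM in mutant SD libraries, against 2.53 and 5.40 CPM in mutant ZT6 libraries. It had 3.92, 4.63, 5.77 and 3.58 CPM in control SD libraries, against 0.975, 1.34, 6.09 and 5.08 CPM in control ZT6 libraries and 0, 6.99 and 2.76 CPM in control ZT0 libraries. The values of 0, in mutant SD replicate 4 and control ZT0 replicate 1, allow up to 0.165 and 0.101 CPM (3 counts of the library total, counting error only). Every group overlaps every other, and the log2 fold change after SD was -0.01 ± 1.30 in mutants and 0.42 ± 1.07 in controls (edgeR adjusted p = 1 in both).

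Rgs9, which shortens dopamine receptor signalling in the striatum, varied less. It had 73.4, 32.1, 37.5 and 54.5 CPM in mutant SD libraries, against 41.4 and 47.0 CPM in mutant ZT6 libraries. It had 51.3, 51.6, 32.6 and 53.9 CPM in control SD libraries, against 52.0, 54.6, 44.2 and 50.01 CPM in control ZT6 libraries and 47.8, 41.8 and 38.8 CPM in control ZT0 libraries. The SD groups span the widest range. The log2 fold change after SD was 0.16 ± 0.28 in mutants and -0.08 ± 0.23 in controls (edgeR adjusted p = 1 in both).

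The cortical markers were present at a few CPM. Neurod6 had 1.45, 2.96, 2.83 and 3.42 CPM in mutant SD libraries, against 2.77 and 4.83 CPM in mutant ZT6 libraries. It had 2.07, 3.07, 2.64 and 3.88 CPM in control SD libraries, against 2.17, 1.86, 3.52 and 5.22 CPM in control ZT6 libraries and 1.94, 3.84 and 4.15 CPM in control ZT0 libraries. All groups overlap. After SD the log2 fold change of Neurod6 was -0.51 ± 0.46 in mutants and -0.13 ± 0.39 in controls (edgeR adjusted p = 1 in both).

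Tbr1, a determinant of deep-layer cortical neurons, fell into low and high libraries within most groups. Tbr1 had 2.00, 7.03, 2.46 and 6.28 CPM in mutant SD libraries, against 2.00 and 8.21 CPM in mutant ZT6 libraries. It had 1.85, 1.42, 6.47 and 5.30 CPM in control SD libraries, against 1.83, 1.497, 2.29 and 6.20 CPM in control ZT6 libraries and 2.07, 3.38 and 2.45 CPM in control ZT0 libraries. The high libraries are found in every group but control ZT0. After SD the log2 fold change was -0.20 ± 0.73 in mutants and 0.35 ± 0.61 in controls (edgeR adjusted p = 1 in both), well inside that spread.

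**Figure D2:**
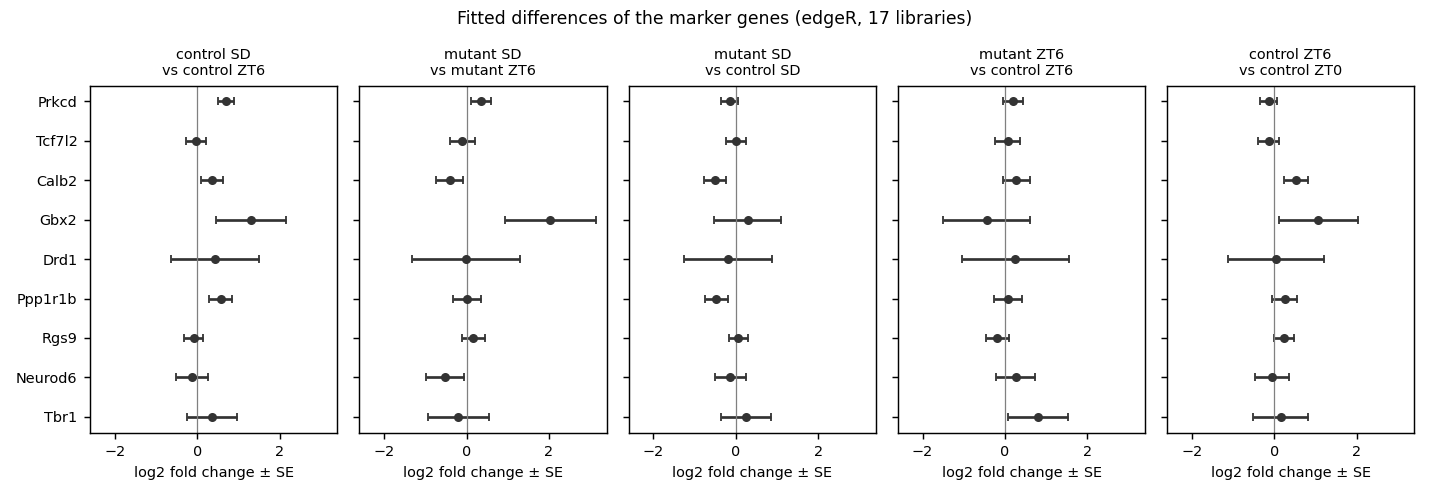
Log2 fold change ± SE (horizontal axis) of the 9 genes (rows) in 5 comparisons (panels), fitted with edgeR over 17 libraries, the first-named group over the second. Prkcd in control SD against control ZT6 (0.69 ± 0.20) lies farthest from 0 in units of its SE, and Drd1 and Gbx2 have the widest bars.

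Over the whole table edgeR called 0 genes (0.0%) in each of the 5 comparisons and in the interaction of genotype and sleep deprivation, and so 0 of the 9 members. At an unadjusted p under 0.05 it held 1318 genes (6.17% of those tested) in control SD against control ZT6. It held 461 (2.16%) in mutant SD against mutant ZT6 and 631 (2.96%) in mutant SD against control SD. The same count was 566 (2.65%) in mutant ZT6 against control ZT6, 694 (3.25%) in control ZT6 against control ZT0 and 530 (2.48%) in the interaction. DESeq2 called 18, 16, 1, 15, 23 and 8 genes in those 6 tests, in the same order, none of them a member. The members' median log2 fold change in control SD against control ZT6 was 0.36, beside -0.020 over all genes. In the other tests, in the same order, it was -0.011, -0.13, 0.19, 0.15 and -0.39. The medians over all genes there were -0.011, -0.021, -0.059, 0.091 and 0.029.

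No member passed the threshold between genotypes. In mutant SD against control SD, log2 fold changes ran from -0.50 ± 0.27 for Calb2 to 0.28 ± 0.81 for Gbx2, with an edgeR adjusted p of 0.999 for both. In mutant ZT6 against control ZT6, they ran from -0.45 ± 1.07 for Gbx2 to 0.80 ± 0.73 for Tbr1 (edgeR adjusted p = 0.999 for both). In control ZT6 against control ZT0, they ran from -0.14 ± 0.26 for Tcf7l2 to 1.07 ± 0.96 for Gbx2 (edgeR adjusted p = 0.966 and 0.96). These misses of the threshold do not show that the groups are alike. With 2 to 4 libraries a group, the SE of a member ran from 0.20 for Prkcd to 1.30 for Drd1.

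Adding the left-out libraries changes the Prkcd values that involve mutant ZT6. With all 22 libraries, Prkcd had a log2 fold change of 1.85 ± 0.50 in mutant ZT6 against control ZT6 (edgeR adjusted p = 0.0715), instead of 0.19 ± 0.24 (edgeR adjusted p = 0.999). In mutant SD against mutant ZT6 it was -1.26 ± 0.49 (edgeR adjusted p = 0.261), opposite in sign to the value without them. In the 4 left-out libraries other than mutant ZT6 replicate 2, Prkcd stood at 48.1 to 57.9 CPM, unscaled, against 5.80 to 17.4 CPM in the 17 kept. The lowest of these, 48.1 CPM, is 150 counts in mutant ZT0 replicate 3. Calb2 stood at 0 to 0.169 CPM there, against 193 to 514 CPM.

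**Figure D3:**
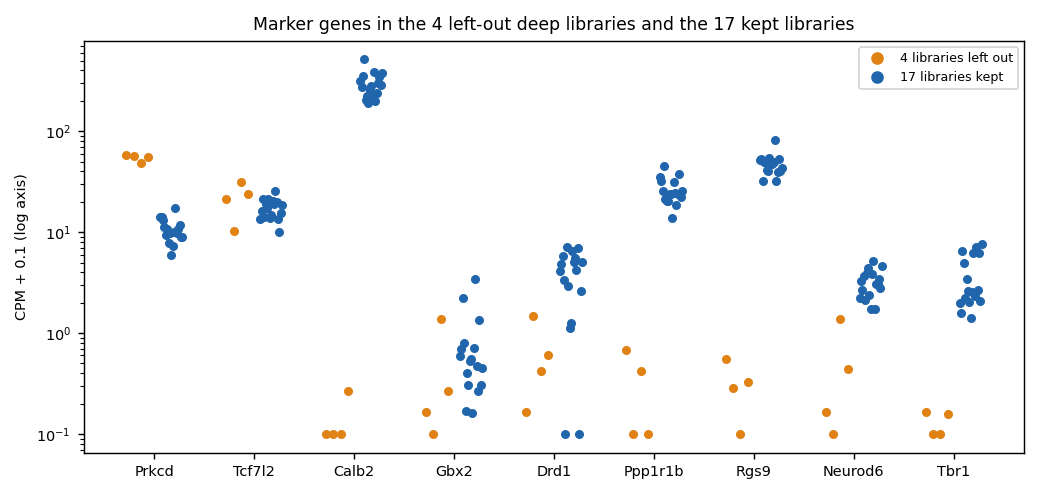
CPM plus 0.1, without TMM scaling (vertical log axis), of the 9 genes (horizontal axis), 1 point per library. Orange points (left) are the 4 left-out libraries other than mutant ZT6 replicate 2, and blue points (right) are the 17 kept. Prkcd is higher in the 4 libraries and Tcf7l2 overlaps, while Calb2, Ppp1r1b, Rgs9 and Tbr1 are far lower there.

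Correlation across libraries paired members of different regions as well as of the same one. Of 36 pairs of members, 26 had a positive Pearson correlation of log2 CPM over the 17 libraries. By permutation, 2 passed an adjusted p of 0.05. The permutations shuffled all libraries without regard to group or index set. Their p-values thus do not separate a link between 2 genes from differences that both share between groups or sets. Calb2 and Ppp1r1b, a thalamic and a striatal label, had r = 0.81 and rho = 0.82 (permutation p = 0.0001 for both, adjusted p = 0.0036). It was 0.76 without the 2 libraries farthest from the median of Calb2 and 0.77 among the 9 libraries of index set 2. Ckmt1 and Ak1, genes of energy metabolism that are in no marker list, had a higher r with Calb2 (below). They were picked as the closest to Calb2 among 16749 genes, so a higher r was built in.

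Prkcd and Gbx2 had r = 0.72 (permutation p = 0.00133, adjusted p = 0.0239) and rho = 0.67 (permutation p = 0.00411, adjusted p = 0.074). It was 0.77 without the 2 libraries farthest from the median of Prkcd and 0.57 within index set 2. Both are thalamic markers, and both are highest in mutant SD replicate 1. The other pairs of thalamic markers had r from -0.28 (Tcf7l2 and Calb2) to 0.33 (Calb2 and Gbx2), none with an adjusted p under 0.05. For Calb2 and Gbx2 it was 0.69 without the 2 libraries farthest from the median of Calb2 and 0.74 within index set 2. For Prkcd and Calb2 it was 0.23, against 0.57 without 2 libraries and 0.44 within index set 2. The striatal pairs had r of -0.15 (Drd1 and Ppp1r1b), -0.25 (Drd1 and Rgs9) and 0.39 (Ppp1r1b and Rgs9). The cortical pair, Neurod6 and Tbr1, had r = 0.61 (permutation p = 0.0105, adjusted p = 0.126) and 0.27 within index set 2.

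**Figure D4:**
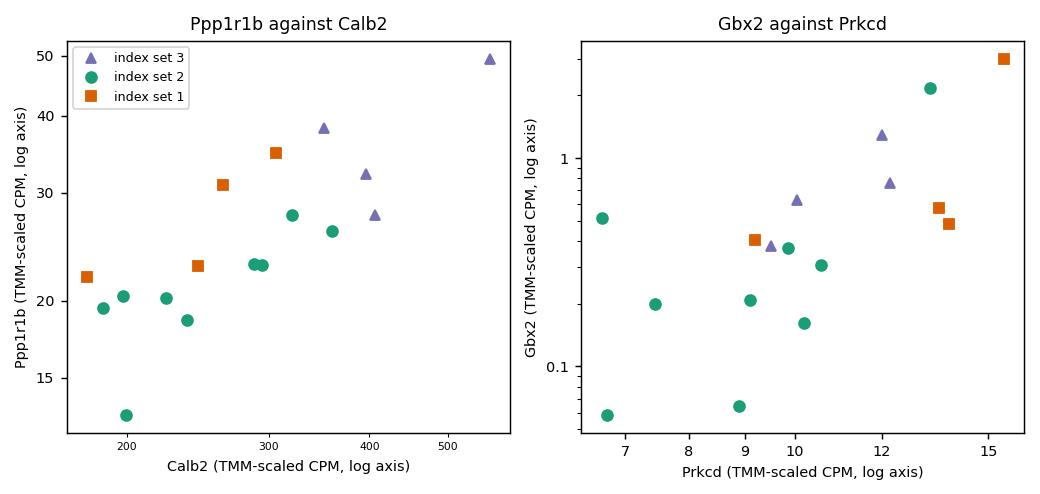
Ppp1r1b against Calb2 (left) and Gbx2 against Prkcd (right), TMM-scaled CPM on log axes, 1 point per library (n = 17), shaped and coloured by index set. Ppp1r1b climbs with Calb2 (r = 0.81), and Gbx2 with Prkcd (r = 0.72) over a range that runs down to 1 count.

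Spread between libraries of a group differed widely among the members. On the log2 scale the within-group SD was 0.238 for Prkcd, which 14.6% of 16749 genes with a mean of at least 1 CPM undercut. It was 0.333 for Rgs9, 0.350 for Tcf7l2, 0.398 for Calb2 and 0.415 for Ppp1r1b, near the median of 0.384 over those genes. Neurod6 (0.546), Tbr1 (0.933), Gbx2 (1.15) and Drd1 (2.23) lay higher, with 75.6%, 92.3%, 94.5% and 97.8% of genes below them. Gbx2 has a mean of 0.682 CPM and so lies under the limit of the genes it is ranked against. Gbx2 and Drd1 are also the members with the fewest counts in a library, and low counts widen this measure. For Drd1, 2 libraries at 0 counts stand beside up to 185 counts in others, and the source of this was not tested.

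Part of the spread followed the index sets. In a fit of group plus index set, chosen after seeing the data, edgeR called 17.4% of all genes between index sets 3 and 1, 22.4% between sets 3 and 2 and 18.3% between sets 2 and 1. The members called were 3 of 9, 2 of 9 and 1 of 9 in that order, all 3 of the first being higher in set 3 (8.95% of all genes).

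Calb2 averaged 429 ± 92.9 CPM in index set 3, 256 ± 61.4 CPM in set 2 and 248 ± 53.3 CPM in set 1 (SD, n = 4, 9 and 4). Its log2 fold change in the group-adjusted fit was 0.88 ± 0.15 for set 3 over set 1 (edgeR adjusted p = 0.00161) and 0.54 ± 0.13 for set 3 over set 2 (edgeR adjusted p = 0.0112). Calb2 was thus higher in set 3 than in either other set. Tbr1 averaged 6.50 ± 1.23, 3.29 ± 2.03 and 1.78 ± 0.251 CPM in sets 3, 2 and 1, a log2 fold change of 1.96 ± 0.45 for set 3 over set 1 (edgeR adjusted p = 0.00873). Neurod6 averaged 4.34 ± 0.831, 2.95 ± 0.783 and 2.19 ± 0.667 CPM, a log2 fold change of 0.99 ± 0.32 (edgeR adjusted p = 0.0483). Both cortical markers were thus higher in set 3 than in set 1.

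Ppp1r1b averaged 36.9 ± 9.48 CPM in index set 3 and 21.2 ± 4.29 CPM in set 2, a log2 fold change of 0.69 ± 0.17 (edgeR adjusted p = 0.0106). The overlapping gene 1700003D09Rik had 13.3 to 19.6 CPM in set 3 and 1.98 to 5.65 CPM in the other libraries, and its part in the Ppp1r1b values was not tested. Rgs9 averaged 41.2 ± 7.15 CPM in set 2 and 57.0 ± 10.9 CPM in set 1, and fell by 0.56 ± 0.16 on the log2 scale (edgeR adjusted p = 0.0266). In set 1, Rgs9 had 73.4 CPM in the pituitary-rich mutant SD replicate 1 and 51.3 to 52.0 CPM in the others. No other striatal marker was called between sets. Calb2, Neurod6 and Tbr1 do not overlap between sets 3 and 1, as 12.5% of all genes do not in that direction, nor does Ppp1r1b between sets 3 and 2 (7.52% of all genes). Prkcd, Tcf7l2, Gbx2 and Drd1 were not called between any 2 sets.

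Markers of other cell types also differed between the sets. The 11 neuronal genes summed to 6417 to 7706 CPM in set 3, 4821 to 6718 CPM in set 2 and 4134 to 5743 CPM in set 1. The 10 astrocyte genes summed to 4204 to 4485 CPM, 3545 to 4226 CPM and 3300.01 to 3934 CPM in the same order, with 4 called higher and 0 lower for set 3 over set 2. Of 8 endothelial and pericyte genes, 6 were called higher and 0 lower for set 3 over set 2. Of 9 meningeal genes 2 were called higher and 0 lower, beside 12.7% and 9.73% of all genes. In the same contrast 3 neuronal genes were called higher and 1 lower. Microglial and ependymal genes had 1 higher and 1 lower each, and interneuron genes 0 and 1. For set 3 over set 1, astrocyte genes had 3 higher and 1 lower, endothelial and pericyte genes 3 and 0, and meningeal genes 0 and 0. Their part in the members' values was not tested.

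**Figure D5:**
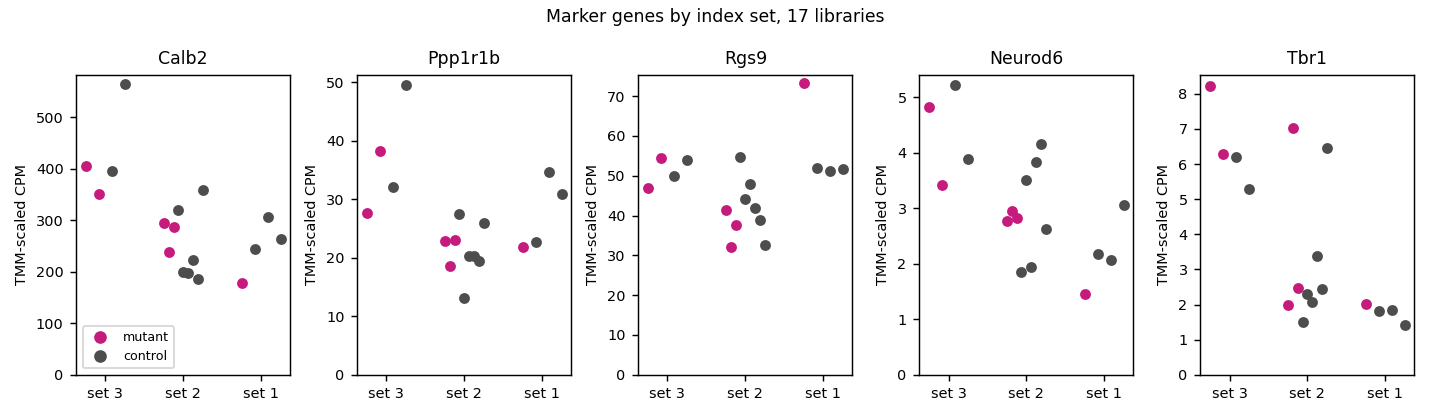
TMM-scaled CPM (vertical axes, from 0) of the 5 members called between index sets (panels), by index set (horizontal axis), 1 point per library, mutant in pink and control in grey. In set 3, Calb2 (351 to 564 CPM) and Tbr1 (5.30 to 8.21 CPM) lie above all libraries of set 1.

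Other genes of the same regions were read from lists chosen with earlier results known. Of 15 further thalamic genes 0 were called in any comparison of groups, and in control SD against control ZT6 11 were higher and 4 lower, with a median log2 fold change of 0.02 beside -0.020 over all genes. Their summed level was 678 to 877 CPM in mutant SD, 757 to 809 CPM in mutant ZT6, 700 to 835 CPM in control SD, 664 to 850 CPM in control ZT6 and 737 to 898 CPM in control ZT0. These ranges overlap, but the sums weigh most the genes with the highest levels. Slc17a6, the highest of the 15, ran from 214 to 400 CPM (median 317) over the 17 libraries. The overlap thus says little about the listed genes at a few CPM. Lef1, the Wnt partner of thalamic neurons, ran from 4.69 to 11.2 CPM (median 7.57) over the 17 libraries. Ramp3, a subunit of calcitonin-family receptors, ran from 1.68 to 6.35 CPM.

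Between index sets, 4 of the 15 thalamic genes were called higher and 0 lower for set 3 over set 1, beside 8.95% of all genes higher and 8.5% lower, while 7 were higher and 8 lower in all. The 4 were Zic1, a zinc finger gene (1.53 ± 0.43, edgeR adjusted p = 0.0255), Synpo2 (1.24 ± 0.38, edgeR adjusted p = 0.0352), Rgs16 (0.89 ± 0.23, edgeR adjusted p = 0.0158) and the forkhead gene Foxp2 (0.56 ± 0.18, edgeR adjusted p = 0.0464). Zic1 was also listed as a gene of septum and basal forebrain. Rgs16 was also higher in set 3 than in set 2, as was the troponin gene Tnnt1, by 1.90 ± 0.47 (edgeR adjusted p = 0.0101), while Pdp1 was lower there, so that 2 were called higher and 1 lower beside 12.7% and 9.73% of all genes. For set 2 over set 1, 3 were called higher and 1 lower, beside 7.43% and 10.9% of all genes. The thalamic members Prkcd, Tcf7l2 and Gbx2 were not among the genes called, and Calb2 was.

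Genes of the habenula, which adjoins the thalamus, spanned a wide range of levels. Gpr151 ran from 0.0504 to 1.14 CPM and Pou4f1 from 0 to 0.598 CPM over the 17 libraries. Tac2, a tachykinin precursor gene, ran from 14.9 to 39.4 CPM and Nr4a2 from 12.9 to 32.6 CPM. Of the 9 habenular genes, 0 were called in any comparison of groups. Their sum ran from 55.3 to 90.0 CPM.

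Of 21 further striatal genes, 20 are in the table and 0 were called between groups. In mutant SD against mutant ZT6, 11 were higher and 9 lower (median 0.0095), and in control SD against control ZT6 18 were higher and 2 lower (median 0.17). In the neuronal list 0 of 11 genes were higher in mutants (median -0.25) and 10 of 11 in controls (median 0.22), with 0 called. Its part in the striatal values was not tested. Adora2a, which defines the indirect-pathway striatal neuron, ran from 0.293 to 1.60 CPM over the libraries. Drd2, the D2 dopamine receptor gene, ran from 10.4 to 50.7 CPM.

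Penk, the enkephalin precursor expressed in striatum and in hypothalamus, had 243 CPM in mutant SD, 304 CPM in mutant ZT6, 342 CPM in control SD and 276 CPM in control ZT6 in the libraries of index set 3. In the other 13 libraries it ran from 67.4 to 137 CPM. The log2 fold change of Penk was 1.76 ± 0.16 for set 3 over set 1 and 1.37 ± 0.14 for set 3 over set 2 (edgeR adjusted p = 1.65e-05 and 2.4e-05). Pdyn, the dynorphin precursor, went the other way, by -0.87 ± 0.15 and -0.63 ± 0.13 (edgeR adjusted p = 0.00156 and 0.00446). Of the 20 striatal genes, 3 were called higher and 3 lower for set 3 over set 1, beside 8.95% of all genes higher and 8.5% lower. For set 2 over set 1, 0 were called higher and 4 lower, among them Drd2 (-1.05 ± 0.23, edgeR adjusted p = 0.00794), beside 7.43% of all genes higher and 10.9% lower. In set 1, Drd2 had 50.7 and 25.1 CPM in the pituitary-rich mutant SD replicate 1 and control ZT6 replicate 1. It had 20.5 and 17.5 CPM in control SD replicates 1 and 2. The difference was not fitted without the pituitary-rich libraries.

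Of 22 further genes of cortex, hippocampus and amygdala, 21 were tested and 0 were called between groups, with 13 higher and 8 lower in control SD against control ZT6. Slc17a7, the vesicular glutamate transporter of cortical excitatory neurons, was at 0 counts in 6 of 17 libraries and reached 2.58 CPM. Emx1 was at 0 in 3 libraries and reached 0.303 CPM. For index set 3 over set 2, 4 of the 21 genes were called higher and 1 lower, beside 12.7% and 9.73% of all genes. The widest difference among them was that of Neurod2, a transcription factor gene of excitatory neurons, at 1.47 ± 0.37 (edgeR adjusted p = 0.0112). Between index sets 3 and 1, 1 of these 21 genes was called higher (Bhlhe22, 0.83 ± 0.23, edgeR adjusted p = 0.0232) and 1 lower (Camk2a), beside 8.95% and 8.5% of all genes.

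Of the 28 hypothalamic genes, 26 had counts in all 17 libraries, and Gal was at 0 in 4 libraries and Lhx8 in 8. Nkx2-1, a factor that specifies the hypothalamus, ran from 24.6 to 48.4 CPM, the orexin gene Hcrt from 17.4 to 186 CPM and the melanin-concentrating hormone gene Pmch from 230.1 to 1191 CPM. The 28 hypothalamic genes summed to 2007 to 3560 CPM. For index set 2 over set 1, 10 were higher and 18 lower, with 2 called higher and 2 lower, beside 7.43% of all genes called higher and 10.9% lower. Pmch and Hcrt were higher, by 1.46 ± 0.22 and 1.90 ± 0.50 (edgeR adjusted p = 0.00148 and 0.0186). Nr5a1 and Baiap3 were lower, at -1.23 ± 0.19 and -0.69 ± 0.15 (edgeR adjusted p = 0.00176 and 0.00789). For set 3 over set 2, 4 were called higher and 0 lower, beside 12.7% and 9.73% of all genes, among them Nkx2-1 (0.46 ± 0.16, edgeR adjusted p = 0.0497).

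The libraries rich in pituitary transcripts hold other extremes too. The 9 pituitary genes summed to 20804 CPM in mutant SD replicate 1, 1131 CPM in mutant SD replicate 4 and 664 CPM in the first control ZT6 replicate. In the other 14 the sum reached 32.5 CPM at most. Mutant SD replicate 1 is also the library with the highest Prkcd (15.5 CPM), Tcf7l2 (22.9 CPM), Gbx2 (3.01 CPM), Rgs9 (73.4 CPM) and Drd2 (50.7 CPM) and the lowest Calb2 (179 CPM) and Neurod6 (1.45 CPM). The part of pituitary tissue in those values was not tested. Without the 3 libraries, Prkcd after SD was 0.17 in mutants and 0.76 in controls on the log2 scale (edgeR adjusted p = 1 and 0.288), while Gbx2 in mutant SD against control SD turned to -1.84.

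The genes most like each member across the 17 libraries were taken by Pearson r of log2 CPM, 3 for each member. They were picked among 16749 genes with a mean of at least 1 CPM. Of the 27 genes picked, 0 were in the marker lists. The lists hold only a small part of the genes ranked, so a count of 0 says little about the members. The 17 libraries share sets and composition, so r describes them and carries no test. Prkcd was closest to Adipor2, an adiponectin receptor gene (r = 0.91), then Nfya (0.87) and Fan1 (0.87). Calb2 was closest to Ckmt1, a mitochondrial creatine kinase gene (0.98), Ak1, an adenylate kinase gene (0.98), and Zcchc17 (0.97).

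Ppp1r1b was closest to St3gal5 (0.95), Fkbp4 (0.94) and Htra1 (0.94). Rgs9 was closest to Triobp (0.90) and to 2 basement membrane genes, Hspg2 (0.89) and Lamb2 (0.88). Tbr1 was closest to Mab21l2 (0.90), Tax1bp1 (0.89) and Sec63 (0.88). For these members r was 0.72 or more within index set 2. Its 9 libraries are among the 17 used to pick the genes, so this is no separate check.

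For the other members the closest genes were less alike within index set 2 in several cases. Gbx2 was closest to Tekt2 (0.85), Txnip (0.80) and P4hb (0.80), and Drd1 to Lsr (0.80), Dpp4 (0.79) and Crlf2 (0.78). Tcf7l2 was closest to Wdcp (0.85), Cerkl (0.79) and Slco5a1 (0.74), of which Slco5a1 dropped to 0.34 within index set 2. Neurod6 was closest to Gm2464 (0.87), Camta1 (0.83) and Kcnj3, a potassium channel gene (0.83).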

How the data were processed

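RNA of 22 mouse hypothalamus samples was sequenced. Per the labels' protocols, TruSeq polyA libraries were run on a NovaSeq, reads were trimmed with Trimmomatic 0.38, and kallisto 0.44.0 with an Ensembl 79 index gave estimated counts, summed to genes with tximport. The deposited expected counts are whole numbers and not normalized. Lines that repeat a gene ID (5) were dropped.

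The 17 libraries of the 5 groups were fitted together in edgeR 4.0.16 (R 4.3.3) with quasi-likelihood F tests and no covariate. Scaling was by TMM. Low counts were removed with filterByExpr, which was given the groups, a min.count of 10 and a min.total.count of 15. The SE was taken from the fold change and its F value. The procedure was tested on simulated data. Correlations used 100000 permutations (two-sided) of all 17 libraries, not held within groups or index sets, with adjustment over 36 pairs. DESeq2 1.42.0, RLE factors, no filter, a 2-fold limit, only the groups compared, a prior count of 0.5, index covariates, all 22 libraries and leaving out libraries were alternatives.

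The members, lists and tests were chosen with earlier results of these data known. Named genes are the members, the called members of each list (4 largest), the 3 genes most like each member and marker genes given with their range (Lef1, Ramp3, Adora2a, Drd2, Penk, Slc17a7, Nkx2-1, Hcrt, Pmch). Some genes under this rule are not reported here. Gpr151, Pou4f1, Tac2, Nr4a2, Emx1, Gal, Lhx8 and Slc17a6 were named after their values were seen. The index-set contrasts and the rule on groups that do not overlap were likewise added after seeing the data. Floors (3 counts) are 0.0639 to 0.205 CPM in the 17 libraries. The labels do not say that samples are from separate animals, so p-values measure the spread between these samples. Coordinates are from GENCODE M21 (GRCm38).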

Additional observations from a re-analysis of the deposited data

Results flagged for a closer look

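Of 27 groups of 4 values tested, 3 held a library far from the other 3, where chance gives about 1 in 20. Gbx2 had 2.18 CPM in control SD replicate 3, against 0.484 to 0.757 CPM in the other control SD libraries. Rgs9 had 32.6 CPM in the same library, against 51.3 to 53.9 CPM in the others. Tbr1 had 6.20 CPM in control ZT6 replicate 4, against 1.497 to 2.29 CPM in the others, and that library is of index set 3.

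A further group of values comes from libraries that no comparison used. Prkcd had 57.9, 56.5 and 48.1 CPM, unscaled, in the 3 libraries labelled mutant ZT0 (replicates 1, 2 and 3, numbered here in accession order) and 55.1 CPM in replicate 3 of those labelled mutant ZT6, above the highest of the 17 libraries (17.4 CPM). Tcf7l2 had 31.4 CPM in mutant ZT0 replicate 3 and 23.7 CPM in mutant ZT6 replicate 3, beside 9.87 to 25.7 CPM in the 17. Mutant ZT0 replicate 3 holds only 3120328 counts in all, 98 of them of Tcf7l2 and 150 of Prkcd. The other members stood at or below 1.37 CPM in these 4 libraries.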

How the results depend on the processing

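No paired analysis was possible because the labels carry no replicate numbers. Of 432 refitted log2 fold changes of members, 392 kept their direction, 40 reversed and 0 passed the threshold. Leaving out 1 library at a time, 382 of 441 kept it, 59 reversed and 0 passed. The lowest adjusted p of a member in any edgeR or DESeq2 setting was 0.0715 (Prkcd, mutant ZT6 against control ZT6, all 22 libraries). The cause of the reversals was not tested. With all 22 libraries, log2 fold changes turned to -1.26 for Prkcd, 0.16 for Calb2, 0.50 for Drd1, 0.029 for Neurod6 and 0.43 for Tbr1 in mutant SD against mutant ZT6. In mutant ZT6 against control ZT6 they turned to -0.24 for Calb2, -0.22 for Drd1, -0.51 for Ppp1r1b and -0.24 for Neurod6, and in the interaction to 0.060 for Drd1, 0.070 for Ppp1r1b, 0.14 for Neurod6 and 0.049 for Tbr1. Without the 3 libraries rich in pituitary transcripts they turned to -0.055 for Gbx2, 0.52 for Drd1, -0.22 for Ppp1r1b and -0.28 for Rgs9 in mutant SD against mutant ZT6, and to -1.84 for Gbx2, 0.31 for Drd1, -0.39 for Rgs9 and 0.047 for Neurod6 in mutant SD against control SD. Under the same omission they were -0.059 for Tcf7l2 and -0.096 for Drd1 in mutant ZT6 against control ZT6, 0.084 for Neurod6 in control ZT6 against control ZT0, and 0.11 for Tcf7l2, -1.39 for Gbx2, 0.41 for Drd1 and -0.21 for Rgs9 in the interaction. Drd1 in mutant SD against mutant ZT6 turned to 0.040 with RLE factors, 0.034 in DESeq2, 0.041 without the filter and 0.037 with only the groups compared. With index set as a covariate, values turned to 0.032 for Neurod6 in control SD against control ZT6, 0.43 for Tbr1 in mutant SD against mutant ZT6, -0.016 for Tcf7l2 in mutant SD against control SD and -0.025 for Ppp1r1b in mutant ZT6 against control ZT6. With the run of index numbers as a covariate, they turned to 0.37 for Tbr1, -0.0044 for Tcf7l2 and -0.052 for Ppp1r1b in the same 3 comparisons, and to -0.36 for Tbr1 in control ZT6 against control ZT0.

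Leaving out each library in turn, log2 fold changes that reversed ran, in control SD against control ZT6, from -0.32 to 0.21 for Neurod6, -0.15 to 0.057 for Rgs9, -0.050 to 1.00 for Tbr1 and -0.21 to 0.052 for Tcf7l2. In mutant SD against mutant ZT6 they ran from -0.43 to 0.63 for Drd1, -0.25 to 0.13 for Ppp1r1b, -0.089 to 0.32 for Rgs9, -0.87 to 1.14 for Tbr1 and -0.29 to 0.076 for Tcf7l2. In mutant SD against control SD they ran from -0.56 to 0.24 for Drd1, -0.74 to 1.01 for Gbx2, -0.27 to 0.097 for Neurod6, -0.17 to 0.22 for Rgs9, -0.070 to 0.67 for Tbr1 and -0.18 to 0.19 for Tcf7l2. In mutant ZT6 against control ZT6 they ran from -0.35 to 0.73 for Drd1, -0.14 to 0.61 for Neurod6, -0.090 to 0.25 for Ppp1r1b, -0.50 to 1.49 for Tbr1 and -0.058 to 0.23 for Tcf7l2. In control ZT6 against control ZT0 they ran from -0.54 to 1.24 for Drd1, -0.40 to 0.14 for Neurod6 and -0.49 to 0.37 for Tbr1, and in the interaction from -0.90 to 0.20 for Drd1, -0.31 to 1.43 for Gbx2, -0.73 to 0.052 for Neurod6, -0.011 to 0.40 for Rgs9, -1.24 to 0.77 for Tbr1 and -0.26 to 0.11 for Tcf7l2. Prkcd in control SD against control ZT6 ran from 0.61 to 0.81 (lowest edgeR adjusted p = 0.275). Where a group was left with 1 library, that library was assumed to vary like the other groups.

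Counts of all genes called moved away from 0 under some settings. DESeq2 called 18, 16, 1, 15, 23 and 8 genes in control SD against control ZT6, mutant SD against mutant ZT6, mutant SD against control SD, mutant ZT6 against control ZT6, control ZT6 against control ZT0 and the interaction. With all 22 libraries edgeR called 173 genes in mutant SD against mutant ZT6, 1 higher and 172 lower. Without the 3 pituitary-rich libraries it called 2 in control SD against control ZT6, 1 in mutant ZT6 against control ZT6 and 1 in the interaction. It called 1 in control SD against control ZT6 without the filter and 3 in mutant SD against control SD with index set as a covariate. Leaving out 1 library gave 0 to 1, 0 to 3, 0 to 2, 0 to 1 and 0 to 2 genes in control SD against control ZT6, mutant SD against mutant ZT6, mutant ZT6 against control ZT6, control ZT6 against control ZT0 and the interaction. The members' median within-group SD of 0.415 became 1.33 with the left-out libraries other than mutant ZT6 replicate 2 added (21 libraries). The number of member pairs with an adjusted p under 0.05 was 2 of 36, against 5 without the 2 libraries farthest from the median and 0 within index set 2, where only 9 libraries remain. Gbx2, at 1 to 114 counts a library, is limited by depth. Drd1 ran from 0 to 185 counts. Its libraries at 0, control ZT0 replicate 1 and mutant SD replicate 4, hold 29724493 and 18229852 counts in all, within the range of the kept libraries. The source of these values of 0 was not tested.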
